A study of Mus musculus with 72 samples.

Results

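The change between postnatal day 10 (P10) and P14 was examined in the olfactory epithelium of control mice that were given doxycycline (DOX) from birth. The comparison takes the 3 libraries whose titles give a wild-type tetO-Fzd1 status and DOX to P14, and sets them against the 3 with DOX to P10, which makes 6 of the 72 libraries of the series. The P14 mice carried Omp-IRES-tTA and had DOX from P0 to P14. The P10 mice carried the same Omp-IRES-tTA and had DOX from P0 to P10. Omp-IRES-tTA places the tetracycline-controlled activator tTA behind Omp, the gene of olfactory marker protein, so tTA is made in mature olfactory sensory neurons, and DOX keeps tTA off its targets. Neither group carried the tetO-Fzd1-IRES-tdTomato transgene, so the labels set them apart by age and by the length of DOX treatment, which cannot be told apart here. The series asks what happens when the Wnt receptor gene Fzd1 is switched on in these neurons or lost, and samples its lines from P0 or P1 to P14. Further sets of 6 libraries serve here to look at the same interval. EctopicFzd1 mice at P14 and at P10, with Omp-IRES-tTA, tetO-Fzd1-IRES-tdTomato and DOX from P0, form the one, and control mice with Omp-IRES-tTA and no DOX at P14 and at P10 form the other. How many copies of the tTA allele the mice carried, their sex, and whether a library holds 1 animal or several are not given in the sources used here, so p-values measure only the spread between these libraries.

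The olfactory epithelium renews its sensory neurons throughout life: basal progenitors divide, their daughters pass through an immature stage marked by Gap43, and mature neurons express Omp and the parts of the odour transduction cascade. Immediate early genes such as Fos and Egr1 are transcribed within minutes of neuronal firing, growth factor stimulation or stress, without new protein synthesis. In olfactory neurons activity also sets the level of adhesion and guidance molecules, among them Kirrel2, by which axons of like neurons gather into glomeruli in the olfactory bulb.

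The 6 libraries held 5269228, 4041939 and 3586055 gene counts at P14, and 3214480, 2953206 and 3308405 at P10. Reads in genes were 22.8% to 26.7% of all reads at P14 and 25.7% to 31.6% at P10. A set of 13 predicted genes, Gm10800 among them and called the Gm10800 family here, took 11.2%, 17.1% and 17.4% of gene counts in P14 replicates 1, 2 and 3, and 7.53% to 12.4% at P10. No replicate pair of either group agreed within sampling noise, so each library counts as 1 sample. Mature neuron genes were abundant in all 6 libraries. Omp stood at 1373, 1444 and 1072 CPM (counts-per-million, scaled by edgeR's TMM factors) at P14, and at 865, 887 and 890 CPM at P10. Fzd1 stood at 28.03, 22.5 and 20.7 CPM at P14 and at 28.9, 26.3 and 31.0 CPM at P10, and the groups overlapped, with a log2 difference of -0.27 ± 0.47 (standard error, SE; edgeR adjusted p = 1).

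The X-inactivation RNA Xist and the Y-linked genes Ddx3y, Uty, Kdm5d and Eif2s3y set the libraries apart. Xist was at 8.29, 379 and 108 CPM in P14 replicates 1, 2 and 3, against 481, 509 and 493 CPM at P10. The Y-linked genes summed to 248, 39.0 and 216 CPM in P14 replicates 1, 2 and 3, against 0.301, 1.35 and 0.869 CPM at P10. All P10 libraries were thus high in Xist and near 0 in Y-linked genes, P14 replicate 1 was the reverse, and P14 replicates 2 and 3 held both kinds of reads, as did 16 of the 72 libraries when both were counted above 50 CPM for Xist and 10 CPM for the Y-linked sum. Age and this difference cannot be fully told apart in 6 libraries. For that reason the count of called genes and the calls in the immediate early, activity-dependent, axon guidance and cell type lists were also computed with a term for Y-linked expression. The fit was also repeated without P14 replicates 2 and 3. That fit sets replicate 1, low in Xist and high in Y-linked genes, against P10 libraries of the reverse kind. It therefore cannot separate age from this difference.

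Across 22144 genes, edgeR's quasi-likelihood test over all 72 libraries called 21 genes at an adjusted p below 0.05 (Benjamini-Hochberg), which is 0.0948% of those tested. Of these, 15 were higher at P14 (0.0677%) and 6 were lower (0.0271%). The 15 that rose were the immediate early genes Fos, Egr1, Zfp36, Ier2, Dusp1 and Btg2, the olfactory axon molecules Pcdh10, Sema7a and Kirrel2, the activity-dependent gene Lrrc3b, and Edn2, Kcnmb3, Hsph1, Nptx2 and Heg1. The 6 that fell were Mt2, Slc2a4, Gm2a, Spag5, Knstrn and Hnrnpa1. In each of the 21 the 3 P14 libraries lay wholly on one side of the 3 P10 libraries, which was also true of 10.7% of all genes upwards and 10.4% downwards.

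**Figure D1:**
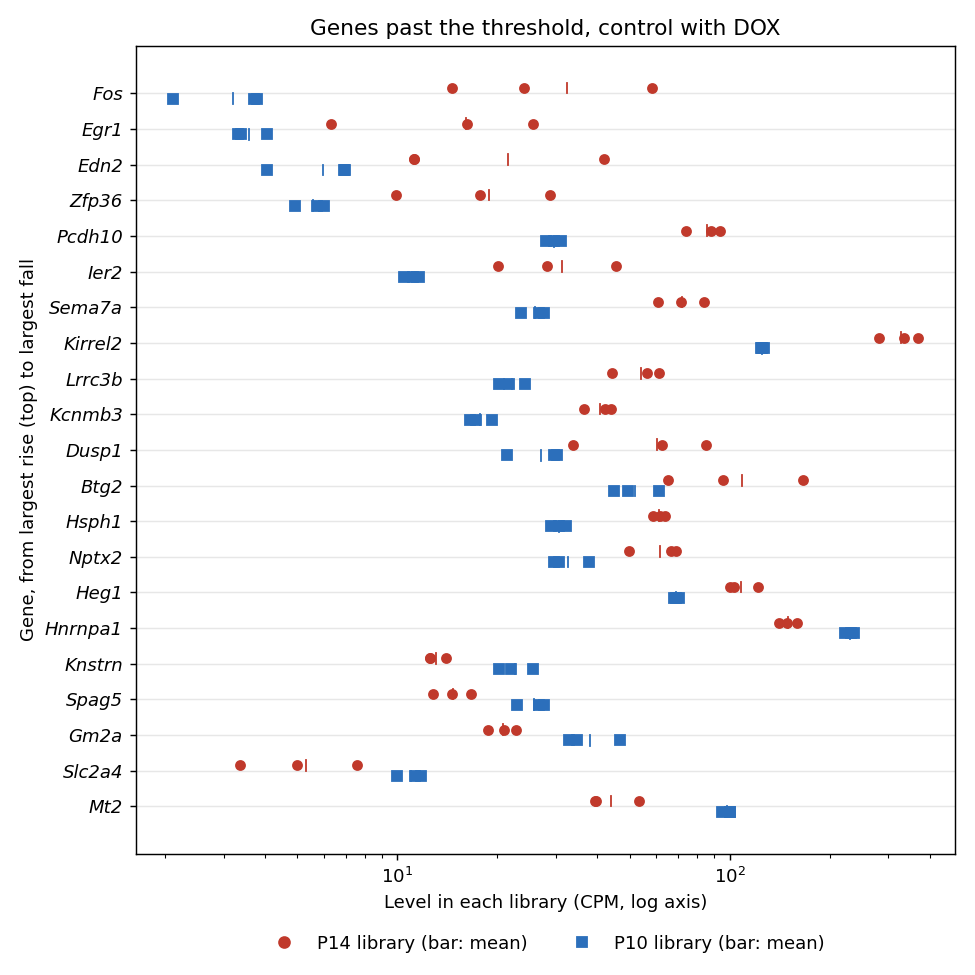
Level of the 21 called genes in each library of control with DOX, in CPM on a log axis. Circles are the 3 P14 libraries and squares the 3 P10 libraries, with a short bar at each mean, and the groups separate in every gene. Fos, Egr1, Zfp36, Ier2, Dusp1 and Btg2 spread widely over the P14 libraries, while Kirrel2, Hsph1 and Hnrnpa1 do not.

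The number of calls differed between fits. All 72 libraries share 1 estimate of the spread in the fit above. Fits on fewer libraries also test fewer genes and are normalised anew: a fit on only the 6 libraries called 1011 of 15263 genes (6.62%, 557 higher and 454 lower) and a fit on the 15 control libraries with DOX called 335 of 17979 (1.86%; 200 higher, 1.11%, and 135 lower, 0.751%), while DESeq2 on the 72 libraries called 120 (0.542%). All 21 genes were among the 1011 and 20 among the 335. With the Gm10800 family removed 8 of the 21 stayed called. None did in the limma fits on log2(TPM + 1) or log2(TPM + 0.1), where TPM is transcripts-per-million. At an unadjusted p below 0.05 the 72-library fit held 1600 genes (7.23%, 756 higher and 844 lower). Leaving out 1 library of the 6 left 6, 2 and 5 calls without P10 replicates 1, 2 and 3, and 13, 8 and 8 without P14 replicates 1, 2 and 3. Pcdh10, Sema7a and Hsph1 kept their calls without any 1 P14 library. With a term for Y-linked expression 50 genes were called, all 21 among them; with P14 replicate 1 as the only P14 library no gene was called (894 at an unadjusted p below 0.05), and all 21 kept their direction; the lone library is there assumed to vary like the other groups.

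**Figure D2:**
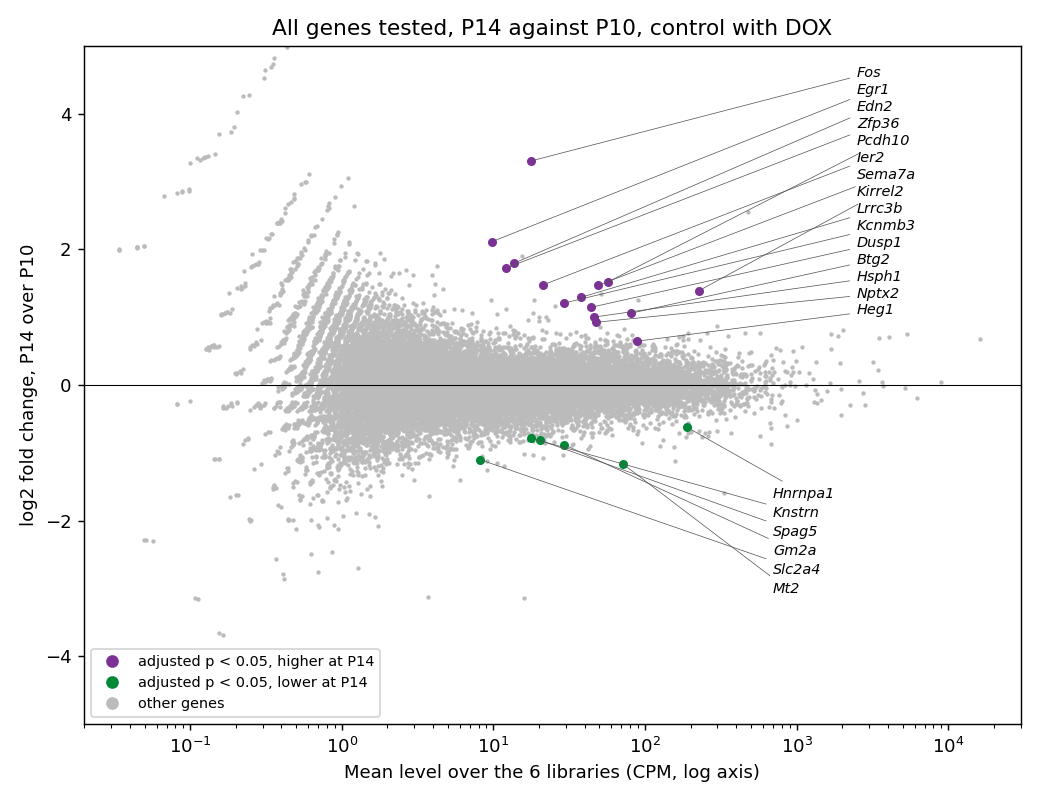
log2 fold change of P14 over P10 (y axis) against mean level over the 6 libraries in CPM (x axis, log scale) for the 22144 genes tested. Purple and green points are the 15 genes called higher and the 6 called lower at P14, and 16 genes fall outside the axes. The called genes sit at 8 CPM or more on average, above the cloud of low genes.

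Of the 16 immediate early genes tested, 6 were called higher at P14, beside 0.0677% of all genes, and none was called lower. Their list had a median log2 fold change of 1.20, against 0.01 over all genes, and 15 of 16 were positive. Fos, a subunit of the AP-1 transcription factor, was at 14.6, 24.1 and 58.3 CPM in P14 replicates 1, 2 and 3, against 2.11, 3.71 and 3.77 CPM at P10. The lowest P14 library thus held several times the Fos of the highest P10 library, and P14 replicate 3 stood well above the other two. The fold was 9.88, a log2 change of 3.30 ± 0.63 with an adjusted p of 0.00768 in edgeR.

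The promoters of Fos, Zfp36, Btg2 and Dusp1, 4 of the 6 called immediate early genes, are shown with matches to regulatory motifs. Ier2 and Egr1 were not searched. Whether the motifs had a part in the changes was not tested. The windows are the 250 bases before the gene start in RefSeq on GRCm38.p6, of which mm10 is the browser name, written 5′ to 3′ on the gene's strand, and Pcdh10 is added as the gene with the smallest p. Capitals mark matches on either strand to the cAMP response element TGACGTCA, to its core TGACG, to the CArG box that serum response factor binds, and to the heat shock element GAANNTTC.
Fos (chr12:85473640-85473889, plus strand): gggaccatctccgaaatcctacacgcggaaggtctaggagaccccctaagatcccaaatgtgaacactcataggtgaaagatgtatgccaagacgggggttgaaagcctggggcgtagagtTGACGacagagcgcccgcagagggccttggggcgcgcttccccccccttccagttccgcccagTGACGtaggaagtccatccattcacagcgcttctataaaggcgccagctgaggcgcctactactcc
Zfp36 (chr7:28379229-28379478, minus strand): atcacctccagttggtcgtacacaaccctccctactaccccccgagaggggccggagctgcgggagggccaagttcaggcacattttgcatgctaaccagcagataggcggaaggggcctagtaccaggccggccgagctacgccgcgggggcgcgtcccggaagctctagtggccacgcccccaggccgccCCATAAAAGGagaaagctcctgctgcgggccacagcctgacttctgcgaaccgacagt
Btg2 (chr1:134079156-134079405, minus strand): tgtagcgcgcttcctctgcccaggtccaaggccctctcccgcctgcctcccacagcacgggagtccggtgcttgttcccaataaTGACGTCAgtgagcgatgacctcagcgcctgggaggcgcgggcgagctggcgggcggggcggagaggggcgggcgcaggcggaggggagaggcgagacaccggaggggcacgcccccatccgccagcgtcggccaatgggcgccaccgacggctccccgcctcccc
Dusp1 (chr17:26508473-26508722, minus strand): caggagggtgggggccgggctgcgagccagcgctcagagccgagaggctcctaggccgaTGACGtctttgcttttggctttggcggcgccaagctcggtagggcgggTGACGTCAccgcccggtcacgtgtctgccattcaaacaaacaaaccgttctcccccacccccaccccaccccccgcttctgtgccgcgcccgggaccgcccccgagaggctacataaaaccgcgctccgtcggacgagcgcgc
Pcdh10 (chr3:45378148-45378397, plus strand): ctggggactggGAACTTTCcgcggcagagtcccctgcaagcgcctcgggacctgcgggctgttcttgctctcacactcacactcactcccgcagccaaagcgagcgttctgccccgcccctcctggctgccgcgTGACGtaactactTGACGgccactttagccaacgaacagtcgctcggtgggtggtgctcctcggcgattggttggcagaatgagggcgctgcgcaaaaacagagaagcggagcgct
Btg2 and Dusp1 each held 1 full cAMP response element, 166 and 143 bases before the start, which 1.55% of all 32851 RefSeq windows of this length hold. Fos held 2 copies of the core, 129 and 66 bases before the start, and Pcdh10 held 2, at 116 and 103 bases. Among genes that fell, Spag5 and Knstrn each held 1, at 65 and 46 bases. In all, 6 of the 18 windows found for 17 of the 21 called genes hold the core. It occurs in 17.8% of all windows, and each full element contains it once on each strand. Zfp36 held the 1 CArG box among the 18 windows, 58 bases before its start, and 1.47% of all windows have one. The heat shock element was found in Pcdh10 and Kcnmb3, and occurs in 6.69% of all windows. A match is a run of letters and not a measured binding site. Bases further upstream were not searched, so a missing match holds for these windows only.

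Egr1, a zinc finger transcription factor, was at 6.32, 16.2 and 25.6 CPM in the P14 libraries, against 3.31, 3.37 and 4.06 CPM at P10. Its log2 change was 2.12 ± 0.48 (edgeR adjusted p = 0.048). Zfp36, which encodes an RNA-binding protein that shortens the life of inflammatory mRNAs, was at 9.87, 17.8 and 28.9 CPM, against 6.02, 5.73 and 4.92 CPM at P10. Here too P14 replicate 1 was lowest and replicate 3 highest, and the log2 change was 1.73 ± 0.33 (edgeR adjusted p = 0.00768).

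Ier2, a nuclear immediate early protein, was at 20.1, 28.2 and 45.5 CPM at P14, against 11.1, 10.5 and 11.6 CPM at P10, a log2 change of 1.48 ± 0.26. Dusp1, a phosphatase that switches off MAP kinases, was at 33.8, 62.5 and 85.1 CPM at P14, against 21.4, 29.7 and 30.1 CPM at P10. Btg2, an antiproliferative gene, was at 65.4, 95.4 and 166 CPM at P14, against 49.4, 44.9 and 61.4 CPM at P10. In Dusp1 and Btg2 the lowest P14 library lay just above the highest P10 library, and P14 replicates 2 and 3 stood further above.

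All 6 called immediate early genes were lowest in P14 replicate 1 and highest in replicate 3. Over the 16 tested members replicate 1 was lowest in 15 and replicate 3 highest in 13, where over all genes these libraries took those places in 34.4% and 34.1%. The share of the Gm10800 family was likewise lowest in replicate 1 and highest in replicate 3, while the Y-linked sum was lowest in replicate 2. Whether either had a part in this order was not tested. Without P14 replicate 3 none of the list was called: Fos stood at a log2 change of 2.58 (edgeR adjusted p = 0.17) and Btg2 at 0.62 (edgeR adjusted p = 0.432). Leaving out P14 replicate 1 raised the count to 8, without P14 replicate 2 it was 4, and without P10 replicates 1, 2 and 3 in turn it was 1, 0 and 2. A fit with the family's share as a covariate called 9, one with the family removed 3, one with the Y-linked term 7, and none was called with P14 replicate 1 as the only P14 library.

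The other 10 of the 16 members were not called. Nr4a1, an orphan nuclear receptor, was at 11.9, 19.1 and 42.3 CPM at P14, against 2.71, 6.41 and 9.85 CPM at P10, a log2 change of 1.90 with an adjusted p of 0.0747 in edgeR. Junb, another AP-1 subunit, was at 18.6, 26.4 and 34.1 CPM at P14, against 10.5, 7.08 and 14.8 CPM at P10 (log2 change 1.25, edgeR adjusted p = 0.0713). Npas4, a transcription factor induced by calcium entry in central neurons, was the 1 member with a negative value, at 0.395, 1.57 and 0.583 CPM at P14, against 2.71, 2.02 and 0.869 CPM at P10. In the 6-library fit 9 of the 12 members tested were called higher, where 3.65% of all genes were, and Nr4a1, Junb and Jun joined the 6.

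Over the DOX series of the control mice, P10 held low levels of several of these genes. Mean Fos was 6.10, 17.1, 18.4, 3.19 and 32.3 CPM at P1, P3, P7, P10 and P14. Zfp36 averaged 7.10, 12.4, 11.7, 5.56 and 18.8 CPM at the same ages. Fos, Egr1, Zfp36 and Ier2 had their lowest mean of the 5 ages at P10 and their highest at P14, as did the chaperone gene Hsph1. The Fos libraries of P7 reached 27.3 CPM and those of P3 reached 34.8 CPM, so the P14 libraries, from 14.6 CPM up, overlap both.

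**Figure D3:**
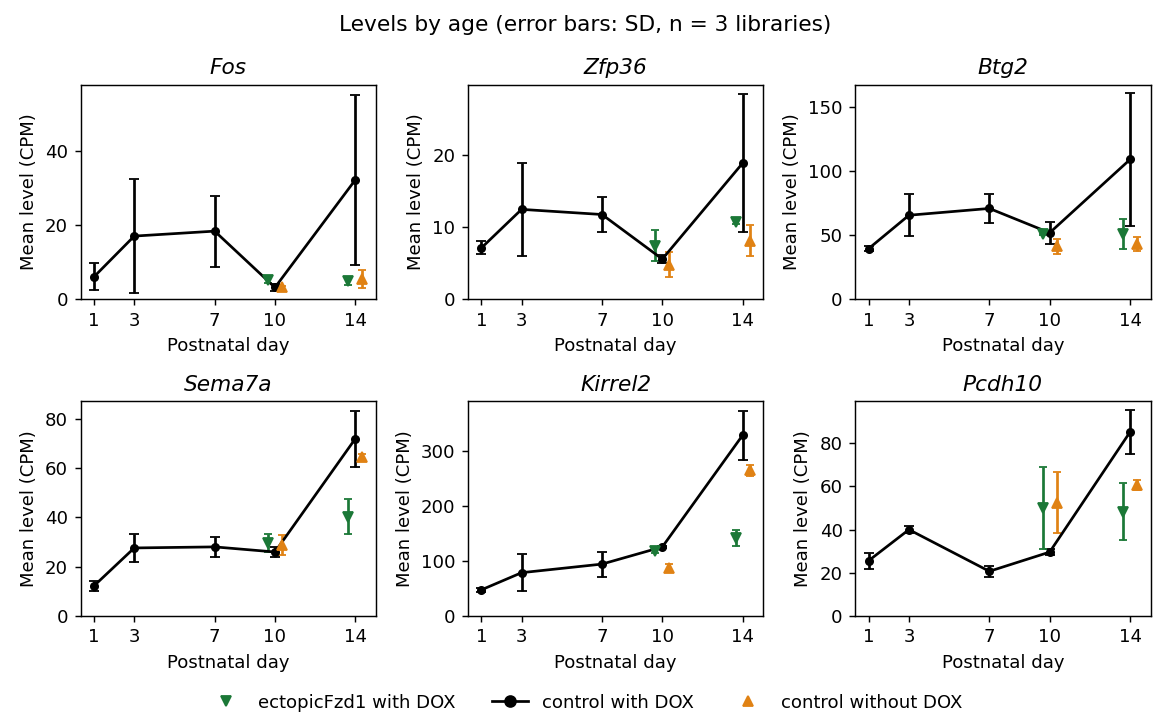
Mean level in CPM (y axis) by postnatal day (x axis) for 6 called genes, with SD over 3 libraries. The black line is control with DOX from P1 to P14; downward triangles are ectopicFzd1 with DOX and upward triangles control without DOX, drawn at P10 and P14 only. The P10 means of Fos, Zfp36 and Btg2 lie under their P7 and P14 means, whereas the mean of Kirrel2 is higher at each later age.

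Pcdh10, Sema7a and Kirrel2, molecules of olfactory axons, were also called higher. Pcdh10, a protocadherin that mediates adhesion between like cells, was at 73.8, 93.8 and 88.0 CPM at P14, against 28, 29.7 and 31.0 CPM at P10. The libraries within each age were close, and the P14 mean was 2.88 times the P10 mean (log2 change 1.52 ± 0.23, edgeR adjusted p = 0.000318). Pcdh10 shares exonic positions with an antisense gene, as do Zfp36, Lrrc3b, Mt2, Heg1, Knstrn and Dusp1 among the called genes. Whether strand was used in counting is not given in the sources used here. Sema7a, a membrane-anchored semaphorin of olfactory axons, was at 60.8, 83.7 and 71.4 CPM at P14, against 23.5, 27.7 and 26.7 CPM at P10 (log2 change 1.47 ± 0.25, edgeR adjusted p = 0.00238).

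Kirrel2, an immunoglobulin adhesion molecule whose level in an axon follows neuronal activity, was at 336, 370 and 281 CPM at P14, against 127, 125 and 124 CPM at P10. It was the most abundant of the 15 risers, with a log2 change of 1.39 ± 0.30 (edgeR adjusted p = 0.0306), and it lost its call without any 1 of the 6 libraries (adjusted p = 0.098, 0.209 and 0.0511 without P14 replicates 1, 2 and 3, and 0.15, 0.18 and 0.156 without P10 replicates 1, 2 and 3). Its mean in control with DOX was 47.3, 78.5, 94.1, 125 and 329 CPM at P1, P3, P7, P10 and P14. Lrrc3b, a leucine-rich repeat gene that depends on activity in olfactory neurons, was at 56.3, 61.4 and 44.3 CPM at P14, against 20.2, 24.3 and 21.7 CPM at P10 (log2 change 1.30 ± 0.25).

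Of the 11 activity-dependent genes of olfactory neurons 2 were called, Kirrel2 and Lrrc3b, both higher, beside 0.0677% of all genes. The list median was 0.35, with 8 members positive and 3 negative. The count was 2 with the Y-linked term and 0 with P14 replicate 1 as the only P14 library. It was 0 without P10 replicate 1, 2 or 3 or P14 replicate 2, since Lrrc3b then lost its call as well (edgeR adjusted p = 0.0933, 0.0756, 0.1 and 0.104), and 1 without P14 replicate 1 or 3. S100a5, a calcium-binding protein of active olfactory neurons, was at 416, 448 and 297 CPM at P14, against 216, 221 and 199 CPM at P10, and Pcp4l1 was at 225, 229 and 201 CPM, against 141, 133 and 139 CPM. Neither passed the 72-library test (edgeR adjusted p = 0.622 and 0.284), and both passed in the 6-library fit, which called 6 of 10 members higher, beside 3.65% of all genes. Of the 22 axon guidance and sorting genes 2 were called, Pcdh10 and Kirrel2, both higher, beside 0.0677% of all genes. The list median was 0.09, which turned negative on the TPM scale, with 14 members positive and 8 negative. The count was 1 with any 1 of the 6 libraries left out and 2 with the Y-linked term. With P14 replicate 1 as the only P14 library the list median was 0.05. Sema7a is not on that list. Epha5, an ephrin receptor, was at 45.0, 47.1 and 50.1 CPM at P14, against 31.9, 26.6 and 26.9 CPM at P10 (edgeR adjusted p = 0.134). Kirrel3, Nrp1, Robo2 and Slit2, which guide olfactory axons as well, had log2 values between -0.16 and 0.09.

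Of the remaining risers, Kcnmb3, a subunit of calcium-activated potassium channels, was at 42.1, 43.9 and 36.4 CPM at P14, against 19.3, 17.2 and 16.5 CPM at P10 (log2 change 1.21 ± 0.25). Edn2, which encodes the peptide endothelin 2, was at 11.3, 11.2 and 42.0 CPM at P14, against 6.92, 4.05 and 6.95 CPM at P10. Its mean of 21.5 CPM rested on P14 replicate 3, and without that library its log2 change was 0.90 (edgeR adjusted p = 0.679). Another 3 risers, below the 12 largest, and Gm2a, whose symbol the filter on predicted gene names removed, lie outside the rule by which genes were named and were added after their values were seen. They are Hsph1, a heat shock chaperone with 61.6, 63.8 and 58.9 CPM at P14 against 30.7, 29.0 and 32.2 CPM at P10, the pentraxin gene Nptx2 (log2 change 0.93 ± 0.20), the membrane receptor gene Heg1 (0.65 ± 0.14), and Gm2a, a lysosomal lipid-binding cofactor (-0.88 ± 0.19).

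Among the 6 genes that fell were both partners of a mitotic spindle complex. Spag5 was at 14.6, 12.8 and 16.6 CPM at P14, against 22.9, 27.7 and 26.7 CPM at P10 (log2 change -0.81 ± 0.16, edgeR adjusted p = 0.011). Knstrn, its binding partner, was at 14.02, 12.6 and 12.5 CPM at P14, against 22.0, 25.6 and 20.3 CPM at P10 (-0.78 ± 0.18, edgeR adjusted p = 0.0445). Mean Spag5 in control with DOX was 37.6, 37.0, 32.2, 25.7 and 14.7 CPM at P1, P3, P7, P10 and P14, lowest at the last age.

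Mt2, a metallothionein that binds zinc and copper and responds to glucocorticoids, was at 39.3, 53.3 and 39.6 CPM at P14, against 94.5, 100 and 101 CPM at P10. Its log2 change was -1.16 ± 0.25 (edgeR adjusted p = 0.0306), and the call was lost without any 1 of the 6 libraries. In the DOX series Mt2 was lowest at P3, with a mean of 34.3 CPM, and highest at P10. The neighbouring metallothionein gene Mt1 was at 83.1, 98.8 and 80.7 CPM, against 159, 161 and 170 CPM (edgeR adjusted p = 0.103). The other 12 glucocorticoid-responsive genes tested had log2 values from -0.46 to 0.32, none of them called. Slc2a4, the insulin-regulated glucose transporter of muscle and fat, was at 3.36, 4.97 and 7.58 CPM at P14, against 9.94, 11.8 and 11.3 CPM at P10. Hnrnpa1, a splicing regulator with many near-identical copies in the genome that could share its reads, was at 149, 141 and 159 CPM at P14, against 237, 223 and 232 CPM at P10 (-0.62 ± 0.14, edgeR adjusted p = 0.048), and its call too was lost without any 1 P14 library.

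Lists of cell type markers were read next. In bulk tissue fewer cells of a type and less RNA per cell cannot be told apart. No member of the lists in this paragraph and the next was called in the 72-library fit. Of 20 mature neuron genes 18 were positive, with a median log2 value of 0.37. In the 6-library fit 14 were called higher, beside 3.65% of all genes. Slc17a6, the glutamate transporter of synaptic vesicles, was at 201, 214 and 177 CPM at P14, against 136, 125 and 129 CPM at P10. Of 15 immature neuron genes 12 were negative (median -0.30), and 5 were called lower in the 6-library fit, beside 2.97% of all genes. Gap43, the growth cone protein, was at 221, 186 and 201 CPM at P14, against 306, 345 and 332 CPM at P10.

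All 20 cell cycle genes had negative values, with a median of -0.41, and 9 were called lower in the 6-library fit, where 2.97% of all genes were. Mki67, the proliferation marker, was at 115, 115 and 132 CPM at P14, against 182, 181 and 176 CPM at P10, and Top2a, which untangles replicated DNA, at 158, 148 and 162 CPM, against 235, 222 and 235 CPM. Of 12 progenitor genes 10 were negative (median -0.33). Of 20 fibroblast and matrix genes 19 were negative (median -0.44), and 14 of the 19 in the 6-library fit were called lower. Col3a1 was at 560, 485 and 574 CPM at P14, against 766, 752 and 868 CPM at P10. These medians kept their sign under each of the 19 alternatives, and while that of sustentacular cells, the support cells of the epithelium, did not: it was 0.18, and -0.04 in log2(TPM + 1). On the TPM scales the median of all genes itself moved to between -0.22 and -0.13.

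**Figure D4:**
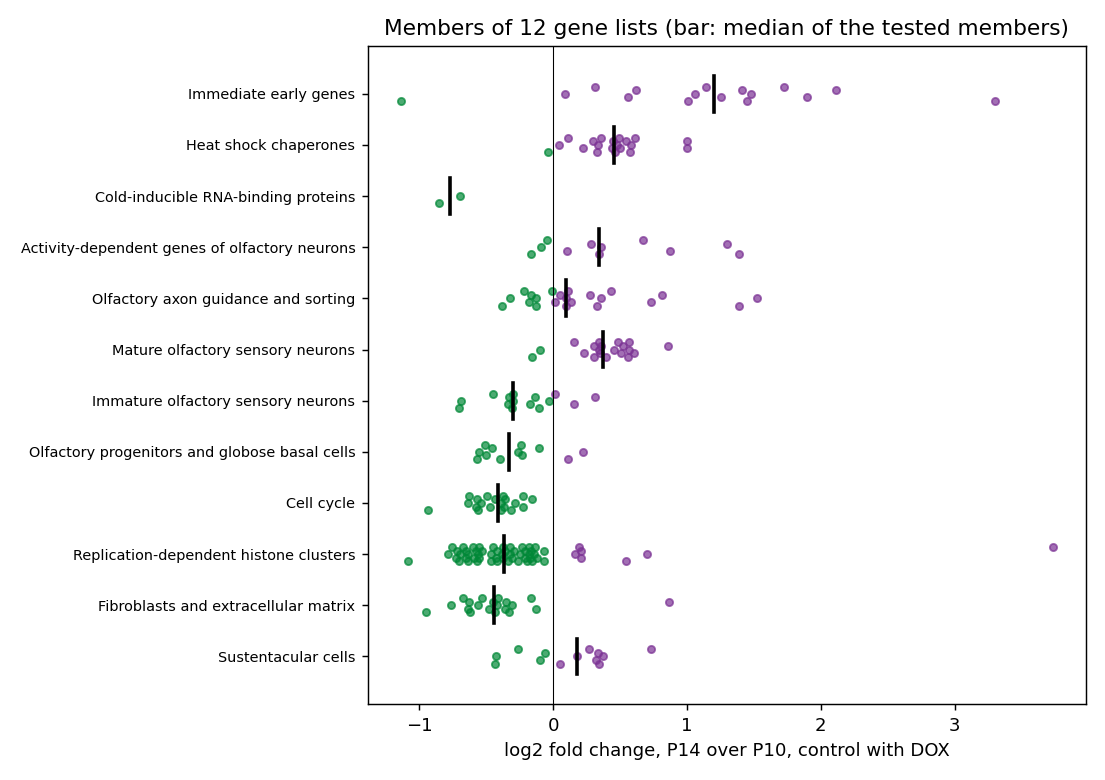
log2 fold change of P14 over P10 in control with DOX (x axis) for the tested members of 12 gene lists (y axis), 1 point a gene, with a bar at the median. Immediate early genes lie to the right with a median of 1.20, mature neuron genes at 0.37, and cell cycle and matrix genes to the left at -0.41 and -0.44.

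Odorant receptors were looked at as a class. Of 1107 annotated Olfr genes 922 were tested and none was called. At an unadjusted p below 0.05, 17 (1.84%) passed upwards and 7 (0.759%) downwards, beside 3.41% and 3.81% of all genes. In the 6-library fit 3 of 544 were called higher, beside 3.65% of all genes. They took 0.405% ± 0.053 of gene counts at P14 and 0.404% ± 0.025 at P10 (SD, n = 3 each; 2-sided exact permutation p = 1, smallest possible 0.1). The 95% Wilson intervals of single libraries, which cover counting error only, ran from 0.348% to 0.467% at P14 and from 0.371% to 0.434% at P10, and 1054 to 1078 receptor genes had a count at P14 against 1050 to 1057 at P10. Near-identical receptor genes can share or lose reads.

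The same interval in the other mice shares no library with this one. The Y-linked sum differed with age there as well. In control without DOX it was 3.80, 3.79 and 1.58 CPM at P10, against 211, 238 and 51.2 CPM at P14. In ectopicFzd1 with DOX it was 0.342, 0.655 and 0 CPM at P10, against 3.51, 13.2 and 148 CPM at P14. Age and this difference cannot be fully told apart in these sets either. In control without DOX, 20 of the 21 genes had the same sign, all 15 risers among them, as did 55% of all genes; 12 passed an unadjusted p of 0.05, as did 11.2% of all genes (6.83% upwards and 4.38% downwards). Of the 21, Kirrel2 and Sema7a were called, both higher, among 72 genes called there (0.325%; 0.226% higher and 0.0993% lower). Kirrel2 averaged 265 CPM at P14 against 87.2 CPM at P10 there (log2 change 1.60 ± 0.30, edgeR adjusted p = 0.00516). Mt2 was the exception, at 99.5 CPM at P14 against 77.2 CPM at P10. In ectopicFzd1 with DOX, 18 of the 21 had the same sign (12 of 15 risers and all 6 fallers), as did 62.6% of all genes; 6 passed an unadjusted p of 0.05, as did 6.06% of all genes (2.44% upwards and 3.62% downwards), and none was called. In that interval edgeR called 0 of all genes, with 1343 at an unadjusted p below 0.05 and 10 called by DESeq2, and 1 of its P14 and 1 of its P10 libraries carry the same ID number in their titles.

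**Figure D5:**
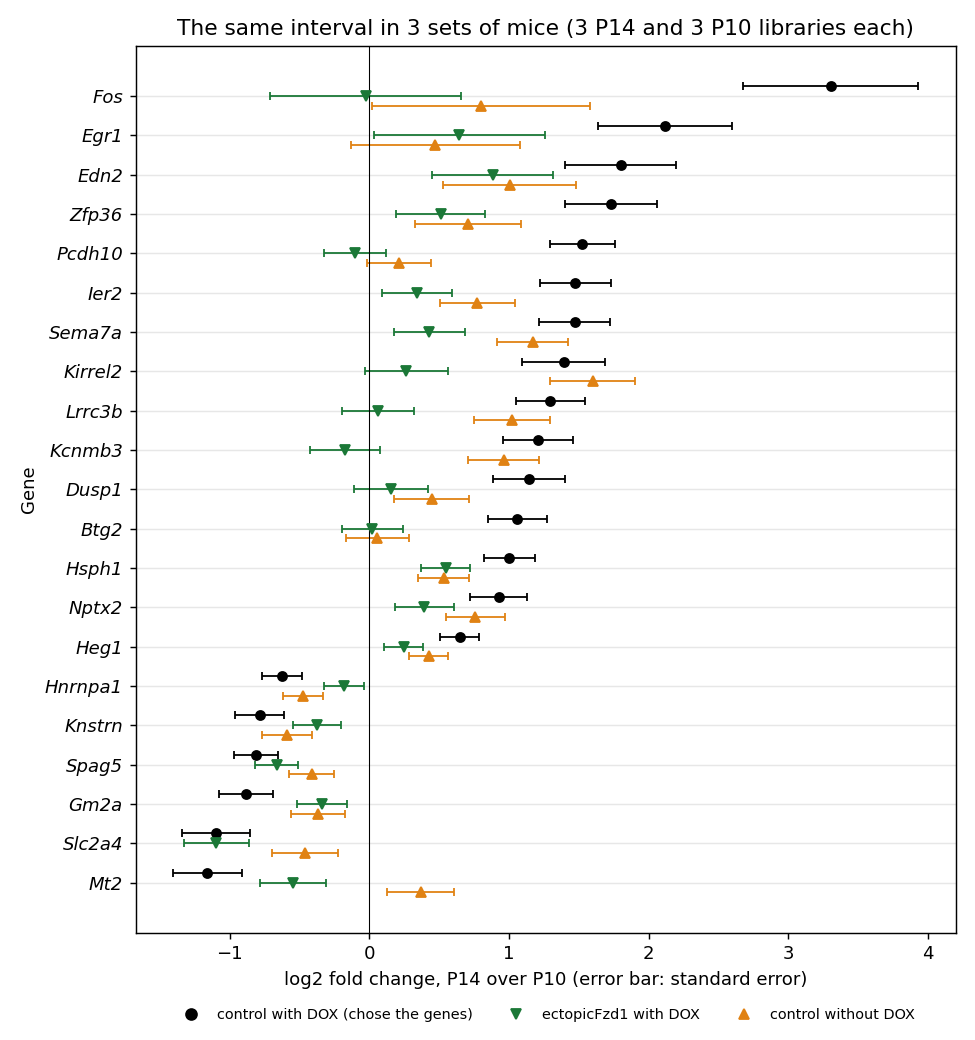
log2 fold change of P14 over P10 with its SE (x axis) for the 21 called genes (y axis) in 3 sets of mice, each of 3 P14 and 3 P10 libraries. Circles are control with DOX, which chose the genes, downward triangles ectopicFzd1 with DOX and upward triangles control without DOX. Kirrel2, Sema7a, Lrrc3b and Kcnmb3 lie near or above 1 in both control sets, but at 0.26, 0.43, 0.06 and -0.17 in ectopicFzd1 with DOX. Btg2 and Pcdh10 lie above 1 in control with DOX and near 0 in the other sets.

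Fos at P14 averaged 4.88 ± 0.93 CPM in ectopicFzd1 with DOX and 5.51 ± 2.34 CPM in control without DOX, against 32.3 ± 23.0 CPM in control with DOX (SD, n = 3 each). The list's median change over the interval was 0.24 in ectopicFzd1 with DOX and 0.40 in control without DOX. The fallers Spag5 and Slc2a4 had log2 changes in ectopicFzd1 with DOX of -0.66 ± 0.15 and -1.10 ± 0.23, close to those in control with DOX (-0.81 ± 0.16 and -1.10 ± 0.25). The risers Kirrel2, Sema7a, Lrrc3b and Kcnmb3 changed less in ectopicFzd1 with DOX. Their log2 changes there were 0.26 ± 0.30, 0.43 ± 0.25, 0.06 ± 0.26 and -0.17 ± 0.25.

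Whether the interval itself differed between the mice was tested over all genes. Against ectopicFzd1 with DOX no gene was called by edgeR, with 453 at an unadjusted p below 0.05 (2.05%; 1.09% with a higher change in control with DOX and 0.953% with a lower one) and 2 called by DESeq2. The smallest p belonged to Pcdh10, whose change was 1.63 larger in control with DOX (edgeR adjusted p = 0.104). In ectopicFzd1 mice Pcdh10 averaged 48.3 ± 13.3 CPM at P14 and 50.1 ± 19.1 CPM at P10. The next were Gm17300 and Psmg3 (both with an edgeR adjusted p of 1). Against control without DOX 1 gene was called, Omp (0.00452% of genes), with a difference of -4.22 in control with DOX relative to control without DOX; 4.84% of genes passed an unadjusted p of 0.05 (1.87% higher and 2.97% lower). Omp level had a part in choosing the control libraries with DOX, so the call of Omp is not independent of that choice. The next genes by p were Gm14743 and Wdr17 (both with an edgeR adjusted p of 0.0772). For the other called genes the difference between intervals did not pass this test, which does not show that they changed alike.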

How the data were processed

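Total RNA of olfactory epithelium was sequenced after removal of ribosomal RNA with a stranded kit, per the labels' protocols. The tools named are bcl2fastq 2.18, STAR 2.6.1c and RSEM, with the mouse build mm10, per the submitters' processing notes. A table deposited by the authors gives raw counts for each gene, and the deposited TPM table holds RSEM values scaled by the authors for length and depth. Which annotation they counted on, and whether by strand, is not given in the sources used here. The 4 summary rows outside genes stayed out of all fits; genes held 22.8% to 31.6% of the reads of the 6 libraries.

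The fits used edgeR 4.0.16 under R 4.3.3: filterByExpr over the 25 groups, TMM, and a quasi-likelihood fit with 1 term per group. Adjusted p-values are Benjamini-Hochberg over the 22144 genes. CPM are counts over the TMM-scaled total of tested genes. Positions came from GENCODE M21, which held 99.8% of the gene IDs. Alternatives were DESeq2 1.42.0 and its size factors, other filters, fewer libraries, limma 3.58.1 on log2(TPM + 1) and log2(TPM + 0.1), the Gm10800 family removed or as covariate, a Y-linked covariate, and leaving out each library. The analysis without P14 replicates 2 and 3 was added after seeing the data. The steps were tested on simulated counts. A like Omp level at P14 and P10 was among the reasons for choosing the libraries compared. The libraries compared, the 43 gene lists and the naming rule were chosen with earlier results of these data known, and the heat shock, cold-inducible and histone lists after values were seen. Genes named are the 12 largest rises and falls among called genes with at least 3 CPM and groups that do not overlap, symbols of predicted genes (Gm followed by a digit and the like) left out, called list members, genes that check the labels, and the genes of smallest p in each interval difference.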

Additional observations from a re-analysis of the deposited data

Results flagged for a closer look

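Omp was flagged because its change over the interval differed between control with DOX and control without DOX by a test of the difference itself. The P14 and P10 libraries of control with DOX were chosen in part for their like Omp level. A small Omp change on that side was thus favoured by the choice, and the p-value does not allow for it. The log2 change in control with DOX minus that in control without DOX was -4.22 ± 0.50 (edgeR quasi-likelihood, adjusted p = 2.27e-07). In control with DOX, Omp averaged 1296 ± 198 CPM at P14 and 881 ± 13.8 CPM at P10 (SD, n = 3 each), a log2 change of 0.56 ± 0.33. In control without DOX it averaged 1409 ± 95.3 CPM at P14 and 51.6 ± 8.23 CPM at P10, a log2 change of 4.77 ± 0.40. The 3 P10 libraries without DOX all stood between 46.9 and 61.1 CPM. Omp was also at 23.9 to 36.2 CPM in control with DOX at P3, between means of 222 CPM at P1 and 546 CPM at P7, and at 56.5 and 34.8 CPM in ectopicFzd1 with DOX at P14 and P10. In control without DOX, Cnga2, the cyclic nucleotide-gated channel, changed by 0.27 and Gnal, the olfactory G protein, by 0.43 over the same interval. The median change of the 20 mature neuron genes, Omp among them, was 0.58 in control without DOX. Whether the Omp-IRES-tTA allele, which alters the Omp transcript, has a part in these levels was not tested.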

How the results depend on the processing

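The count of 21 was 120 by DESeq2, 52 with DESeq2 size factors in edgeR, 56 with no filter, 1011 in a fit on only the groups compared and 335 on only control libraries with DOX. It was 0, 0 and 1 by limma on log2(TPM + 1), log2(TPM + 0.1) and log2(TPM + 1) with a mean TPM of at least 1. It was 8 with the Gm10800 family removed, 127 with its share as covariate, 50 with the Y-linked covariate, 0 without P14 replicates 2 and 3, and 2 to 13 with 1 library left out. No called gene reversed in any of these. For ectopicFzd1 with DOX, where 0 were called, the counts were 10 by DESeq2, 72 with no filter, 27 on the groups compared, 5 with the family covariate, 1 with the Y-linked covariate and 0 to 5 with 1 library left out. For control without DOX, where 72 were called, they were 282 by DESeq2, 123 with its size factors, 151 with no filter, 1657 on the groups compared, 6, 3 and 5 on the TPM scales, 39 with the family removed, 109 with the Y-linked covariate and 9 to 42 with 1 library left out. The difference from ectopicFzd1 with DOX (0 called) gave 2 by DESeq2, 14 with no filter, 2 on the groups compared, 1 on log2(TPM + 1) with a mean TPM of at least 1 and 0 to 1 with 1 library left out. The difference from control without DOX (1 called) gave 6, 53 and 185 in the first 3 of these, 2 on each TPM scale, and 1 to 2 with 1 library left out. The odorant receptor share at P14 minus P10 was 0.000378 percentage points, 0.029 of gene counts without the Gm10800 family, -0.0108 on TPM, -0.0273 without P14 replicate 2, -0.0131 without P10 replicate 3 and at most 0.0255 with 1 library left out. Gm14743 ran from -1.28 to 0.82 with 1 library left out, positive without P10 replicate 3, and Xist to 1.86 with the Y-linked covariate. Libraries of 2953206 to 5269228 gene counts limit what can be seen in genes of low level. No paired analysis was possible because the labels give no replicate numbers that the groups share.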

Other observations

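Chaperones of the heat shock response and the cold-inducible RNA-binding proteins were looked at after Hsph1 had been seen among the called genes, so they are described without a test of the group. Of 20 chaperone and co-chaperone genes 19 had positive values, with a median log2 change of 0.46, and in 15 the P14 libraries lay wholly above the P10 libraries, as in 10.7% of all genes. Hsph1 alone was called in the 72-library fit, and 12 of 19 were called higher in the fit on 6 libraries, beside 3.65% of all genes. Hspb1, a small heat shock protein, was at 25.7, 32.7 and 30.6 CPM at P14, against 16.6, 15.5 and 12.2 CPM at P10. Stip1, which links Hsp70 to Hsp90, was at 142, 144 and 129 CPM at P14, against 91.2, 93.4 and 92.4 CPM at P10, and Chordc1 was at 86.9, 82.6 and 76.9 CPM, against 55.1, 56.3 and 50.4 CPM. The mitochondrial chaperonin genes Hspd1 and Hspe1 had log2 values of 0.11 and -0.04. Cirbp and Rbm3, whose transcripts accumulate when cells are cooled, had negative values. Cirbp was at 73.8, 69.0 and 61.5 CPM at P14, against 125, 115 and 129 CPM at P10 (edgeR adjusted p = 0.265 in the 72-library fit and 1.62e-05 in the 6-library fit). Rbm3 was at 185, 143 and 134 CPM at P14, against 254, 257 and 237 CPM at P10 (edgeR adjusted p = 0.189 and 0.00059). In control without DOX, which shares no library with these, Stip1, Chordc1, Cirbp and Rbm3 had log2 values of 0.59, 0.55, -0.50 and -0.36 over the interval.

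Of 58 genes of the replication-dependent histone clusters, whose transcripts lack a poly(A) tail and are seen in total RNA, 51 had negative values, with a median of -0.37; none was called in the 72-library fit (at an unadjusted p below 0.05, 16 were lower and 1 higher, beside 3.81% and 3.41% of all genes) and 23 of 56 were called lower in the 6-library fit, beside 2.97% of all genes. Of 18 circadian clock genes 10 were positive and 8 negative, with a median of 0.04, and none was called. The P14 libraries lay wholly above the P10 libraries in 4 and wholly below in 6, beside 10.7% and 10.4% of all genes. The clock genes Dbp and Per3, the largest negative values of that list, were at 17.8, 13.1 and 14.6 CPM and at 22.7, 26.7 and 37.0 CPM at P14, against 24.4, 27.99 and 29.8 CPM and 44.3, 40.1 and 52.1 CPM at P10, and the time of day of sampling is not given in the sources used here.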
